A study of Mus musculus with 8 samples.

Results

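Transforming growth factor beta (TGF-beta) ligands, the receptors that endothelial cells use for them, a latent binding protein and a signalling SMAD were followed across single cells sorted from mouse mesentery and epididymal fat. The 10 genes were taken by symbol, out of 30406 gene identifiers shared by all libraries. They are the ligands Tgfb1, Tgfb2 and Tgfb3, the latent binding protein Ltbp4, the receptors Tgfbr2, Tgfbr1 and Acvrl1, the co-receptors Tgfbr3 and Eng, and Smad1. They were matched by symbol and not by level, but the list was chosen with earlier results of these data known. All 10 were detected.

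TGF-beta is secreted in a latent form, bound to its own propeptide and to a latent binding protein that anchors it in the matrix. Once released, the ligand binds the type II receptor TGFBR2, which activates a type I receptor. Signalling through ALK5 (gene Tgfbr1) runs through SMAD2 and SMAD3, and signalling through ALK1 (gene Acvrl1) runs through SMAD1 and SMAD5. ALK1 and its co-receptor endoglin (gene Eng) mainly serve the circulating ligands BMP9 and BMP10, and loss of either gene causes hereditary haemorrhagic telangiectasia, a disease of arteriovenous malformations.

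The animals were male and of the genotype ROSA26-eYFP+/+ Cdh5-CreERT2+. Tamoxifen lets their Cre recombinase, driven by the promoter of the endothelial gene Cdh5, switch on a YFP reporter. All animals, controls included, carried both alleles and ate tamoxifen food for 2 weeks from 6 weeks of age. Chow with 5.8% fat, or a high fat diet with 60% fat, followed from the age of 8 weeks and lasted 12 to 13 weeks. Mesentery and epididymal adipose were each taken on either diet, which gives 4 groups with 2 libraries each. A library was made from YFP-positive cells of 6 pooled mice, and the runs A and B are independent repeats of the whole experiment. The tissue was digested in the presence of Actinomycin D, an inhibitor of transcription. Individual mice cannot be resolved, so n is 2 pools per group.

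The libraries of run A held 3461360 to 6714473 UMIs (unique molecular identifiers, the counted mRNA molecules), and those of run B held 18829960 to 36779289. Median UMIs per barcode were 1161 to 2677 in run A and 3185 to 4340 in run B. Barcodes over the mitochondrial limit made up 22.8 to 30.8% in run A and 5.4 to 8.8% in run B. Any pair of libraries shared 0 to 10 barcodes, at most 0.31% of the smaller library. Of 27944 barcodes, 23139 were used, and 18579 of these lay in clusters that carry endothelial markers. Not all sorted cells were endothelial: clusters with markers of mural cells, fibroblasts, macrophages, adipocytes and lymphocytes were present. The lymphatic-like share of endothelial cells was 26.3 to 57.7% for run A and 3.6 to 7.6% for run B. The runs, their mice and their count software cannot be told apart.

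The 4 endothelial classes studied each held at least 50 cells in every library. They were rebuilt here from marker genes and are called "-like" for that reason. Arterial-like cells (2607 cells) are clusters 5 (led by Col8a1) and 8 (led by Gkn3). Capillary-like cells (5921) are clusters 1 (Car4) and 2 (Cxcl9). Venous-like cells (3085) are clusters 6 (Ackr1), 7 (Adgrg6), 29 (Glycam1) and 14. Lymphatic-like cells (2478) are clusters 4 (Reln) and 11 (Nts). The 10 endothelial markers, all detected, summed to 9505 to 12227 CPM in arterial-like and 6115 to 7984 CPM in lymphatic-like cells, where lymphatic markers summed to 28961 to 52095 CPM. The 10 genes and the other pathway genes were kept out of the genes used for clustering. Even so, clusters of the same cells give no independent test, so differences between classes are descriptions. Levels are in CPM, the UMIs of a gene scaled to the UMI total of the class in that library, and they are compared within a gene only.

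The 3 ligands had 3 different class patterns. Tgfb1, the most widely used isoform, was found in every class and was highest in lymphatic-like cells. Its level there ran from 179 to 317 CPM over the 8 libraries, with a median of 265. The medians were 148 in arterial-like, 124 in capillary-like and 111 in venous-like cells. The lymphatic-like level was above the arterial-like level of the same library in 8 of 8 libraries, by 0.78 ± 0.18 on the log2 scale (mean ± SD, n = 8). Arterial-like, capillary-like and venous-like cells did not separate, since their order changed between libraries. Outside the endothelium, macrophage-like cells had 240 and 248 CPM of Tgfb1 in the 2 libraries that held enough of them.

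Tgfb2, the isoform tied to heart and valve development, was concentrated in lymphatic-like and arterial-like cells. The lowest, median and highest levels were 59.4, 112 and 180 CPM in lymphatic-like cells and 35.3, 82.0 and 195 CPM in arterial-like cells. These 2 classes did not separate, with lymphatic-like cells the higher in 5 of 8 libraries. In venous-like cells the range was 2.36 to 32.2 CPM, lower than in either of these classes in 8 of 8 libraries. Capillary-like cells split by run, at 23.7 to 77.5 CPM in run A and 2.61 to 8.25 CPM in run B. The run A values rest on 7 to 12 UMIs per library. Arterial-like cells were above capillary-like cells in 6 of 8 libraries, so these classes did not separate either, while lymphatic-like cells were above capillary-like cells in 8 of 8. The promoter window of Tgfb2 is shown because Tgfb2 is the gene of the 10 that was called between the tissues. It is the RefSeq window of 250 bases before and 50 bases after the start site at chr1:186705940-186706239 (GRCm38.p6, minus strand), written 5′ to 3′. Capitals mark CAGAC, the SMAD binding element, and TATAAA, the TATA box.
Tgfb2: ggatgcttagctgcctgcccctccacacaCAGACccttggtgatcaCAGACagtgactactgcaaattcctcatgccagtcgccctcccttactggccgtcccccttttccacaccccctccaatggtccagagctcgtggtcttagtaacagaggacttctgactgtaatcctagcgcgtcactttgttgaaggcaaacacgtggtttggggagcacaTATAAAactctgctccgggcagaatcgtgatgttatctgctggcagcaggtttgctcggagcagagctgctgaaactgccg
The window spans the start of the gene, annotated at chr1:186622792-186705989, and holds 2 SMAD elements and 1 TATA box. Searched on both strands, CAGAC occurs in 49.6% and TATAAA in 13.6% of the 32817 promoter windows in the RefSeq table.

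Tgfb3 was close to restricted to lymphatic-like cells among the 4 classes. It had 37.6, 55.0 and 68.4 CPM (lowest, median, highest) there, from 416 UMIs in all. The medians were 1.55 CPM in venous-like, 1.19 in capillary-like and 0 in arterial-like cells, from 30, 77 and 13 UMIs. No UMI was seen in arterial-like cells of 5 of 8 libraries. Cells with under 1000 UMIs, 301 of the lymphatic-like cells, were left out of thinned shares and kept in unthinned ones. After thinning the others to 1000 UMIs, a median of 5.25% of lymphatic-like cells had a Tgfb3 UMI (16.5% unthinned). In T-like cells, which should lack it, the median was 0% both thinned and unthinned, at median depths of 3058 UMIs (lymphatic-like) and 3527 UMIs (T-like). Fibroblast-like and mural-like cells also carried Tgfb3, with medians of 37.0 and 20.4 CPM.

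Ltbp4, which anchors latent TGF-beta in the elastic fibre matrix, was high in arterial-like and lymphatic-like cells. Levels ran from 954 to 1593 CPM (median 1397) in arterial-like cells and from 920 to 1574 CPM (median 1223) in lymphatic-like cells. These 2 classes overlapped, and arterial-like cells were the higher in 5 of 8 libraries. Venous-like cells (median 583 CPM) lay below lymphatic-like cells in 8 of 8 libraries, and capillary-like cells (median 422 CPM) lay below venous-like cells in 8 of 8. The 2 classes with the highest medians of Ltbp4 were thus also those with the highest medians of Tgfb2.

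The 3 signalling receptors differed in which class was highest. Tgfbr2, the type II receptor, had 379, 567 and 730 CPM (lowest, median, highest) in lymphatic-like cells. The medians were 224 CPM in arterial-like, 194 in venous-like and 178 in capillary-like cells. Lymphatic-like cells were above each of the other classes in 8 of 8 libraries, by 1.53 ± 0.56 on the log2 scale over arterial-like cells (mean ± SD, n = 8). The other 3 classes did not separate. A median of 41.1% of lymphatic-like cells had a Tgfbr2 UMI at 1000 UMIs per cell, against 18.4% of arterial-like, 17.7% of venous-like and 12.2% of capillary-like cells. T-like cells, which also use this receptor, stood at 9.50%. The Tgfbr2 window is given for its lymphatic-like excess. It lies at chr9:116175314-116175613 (GRCm38.p6, minus strand, RefSeq), with CAGAC in capitals.
Tgfbr2: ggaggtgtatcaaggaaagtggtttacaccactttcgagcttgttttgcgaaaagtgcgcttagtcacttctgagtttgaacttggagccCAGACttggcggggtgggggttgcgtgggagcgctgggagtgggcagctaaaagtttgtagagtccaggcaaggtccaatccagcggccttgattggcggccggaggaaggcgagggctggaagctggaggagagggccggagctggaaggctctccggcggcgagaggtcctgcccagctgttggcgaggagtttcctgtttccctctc
It spans the start of the gene at chr9:116084293-116175360 and holds 1 SMAD element and no TATA box.

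Tgfbr1, encoding ALK5, was the most thinly counted receptor, with 2 UMIs in the sparsest library of arterial-like cells. Its medians were 29.4 CPM in venous-like, 27.0 in capillary-like, 16.9 in arterial-like and 16.3 in lymphatic-like cells. Venous-like and capillary-like cells were each above arterial-like cells in 8 of 8 libraries. No other neighbouring pair in this order separated, and lymphatic-like cells lay below venous-like cells in 7 of 8 libraries. The share of cells with a Tgfbr1 UMI at 1000 UMIs per cell had a median of 2.53% in venous-like cells and 3.04% in T-like cells. In CPM the T-like median was 16.1 (0 to 55.1 over libraries), below the venous-like median, so the order of these cells depended on the measure.

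Acvrl1, encoding ALK1, was lowest in the class where Tgfbr2 was highest. The lowest, median and highest levels were 185, 294 and 420 CPM in arterial-like cells and 52.6, 74.6 and 102 CPM in lymphatic-like cells. Arterial-like cells were the highest and lymphatic-like cells the lowest class in 8 of 8 libraries, with a gap of 1.92 ± 0.25 on the log2 scale. Venous-like (median 198 CPM) and capillary-like cells (median 186 CPM) lay between them and did not separate. At 1000 UMIs per cell, 24.5% of arterial-like and 7.25% of lymphatic-like cells had an Acvrl1 UMI, against 0% of T-like and B-like cells (medians).

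The co-receptors had their lowest levels in different classes, Eng in lymphatic-like and Tgfbr3 in arterial-like cells. Eng had its highest median, 898 CPM, in venous-like cells (668 to 1475 CPM). Medians were 633 CPM in capillary-like, 487 in arterial-like and 380 in lymphatic-like cells. No pair of neighbours in this order held in all 8 libraries, while venous-like and capillary-like cells were each above lymphatic-like cells in 8 of 8. Eng is printed with its window, at chr2:32646345-32646644 (GRCm38.p6, plus strand, RefSeq), because it was called for diet in 1 lymphatic-like cluster. Capitals mark the SMAD element and GGAAGT, 1 form of the ETS motif, each also as its reverse complement.
Eng: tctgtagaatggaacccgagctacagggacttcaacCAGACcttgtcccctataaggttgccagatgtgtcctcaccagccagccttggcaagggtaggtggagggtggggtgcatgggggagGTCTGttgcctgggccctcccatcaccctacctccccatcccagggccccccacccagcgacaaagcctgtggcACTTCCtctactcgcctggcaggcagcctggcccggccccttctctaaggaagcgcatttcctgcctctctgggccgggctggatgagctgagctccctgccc
It spans the start of the gene at chr2:32646595-32682669 and holds 2 SMAD elements and 1 GGAAGT, a sequence found in 23.8% of all windows. Other forms of the ETS motif were not searched. Tgfbr3, encoding betaglycan, which presents TGF-beta2 to the type II receptor, followed next. Its medians were 184 CPM in capillary-like, 164 in venous-like, 134 in lymphatic-like and 51.2 in arterial-like cells. Arterial-like cells were the lowest in 8 of 8 libraries. Their values split by run, at 12.5 to 28.3 CPM in run A and 74.1 to 107 CPM in run B, and they were the lowest class within each run.

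Smad1, which carries signals of ALK1 and of the BMP receptors, had the widest spread of the receptor and SMAD genes between arterial-like and lymphatic-like cells. Its lowest, median and highest levels were 293, 397 and 557 CPM in lymphatic-like cells and 32.4, 61.0 and 88.9 CPM in arterial-like cells. The difference was 2.66 ± 0.38 on the log2 scale, with the same sign in 8 of 8 libraries. Capillary-like (median 157 CPM) and venous-like cells (median 123 CPM) lay between and did not separate from each other. A median of 31.4% of lymphatic-like cells had a Smad1 UMI at 1000 UMIs per cell, against 6.33% of arterial-like and 0% of T-like cells. Smad1 was thus high where Acvrl1 was low. The Smad1 window lies at chr8:79399379-79399678 (GRCm38.p6, minus strand, RefSeq), and the capitals mark the GC box GGGCGG, found in 35.6% of all windows.
Smad1: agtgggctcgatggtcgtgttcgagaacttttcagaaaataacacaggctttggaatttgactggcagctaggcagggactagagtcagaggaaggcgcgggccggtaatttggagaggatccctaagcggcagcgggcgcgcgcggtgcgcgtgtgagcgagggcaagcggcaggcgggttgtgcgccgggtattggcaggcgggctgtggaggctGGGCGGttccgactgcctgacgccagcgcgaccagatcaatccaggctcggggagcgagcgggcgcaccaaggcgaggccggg
It overlaps the start region of the gene at chr8:79338395-79399518 and holds 1 GC box, no CAGAC and no TATA box. The windows of Tgfb2 and Smad1 differ in CpG content, with 10 and 31 CpG dinucleotides, against a median of 7 over all windows.

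**Figure D1:**
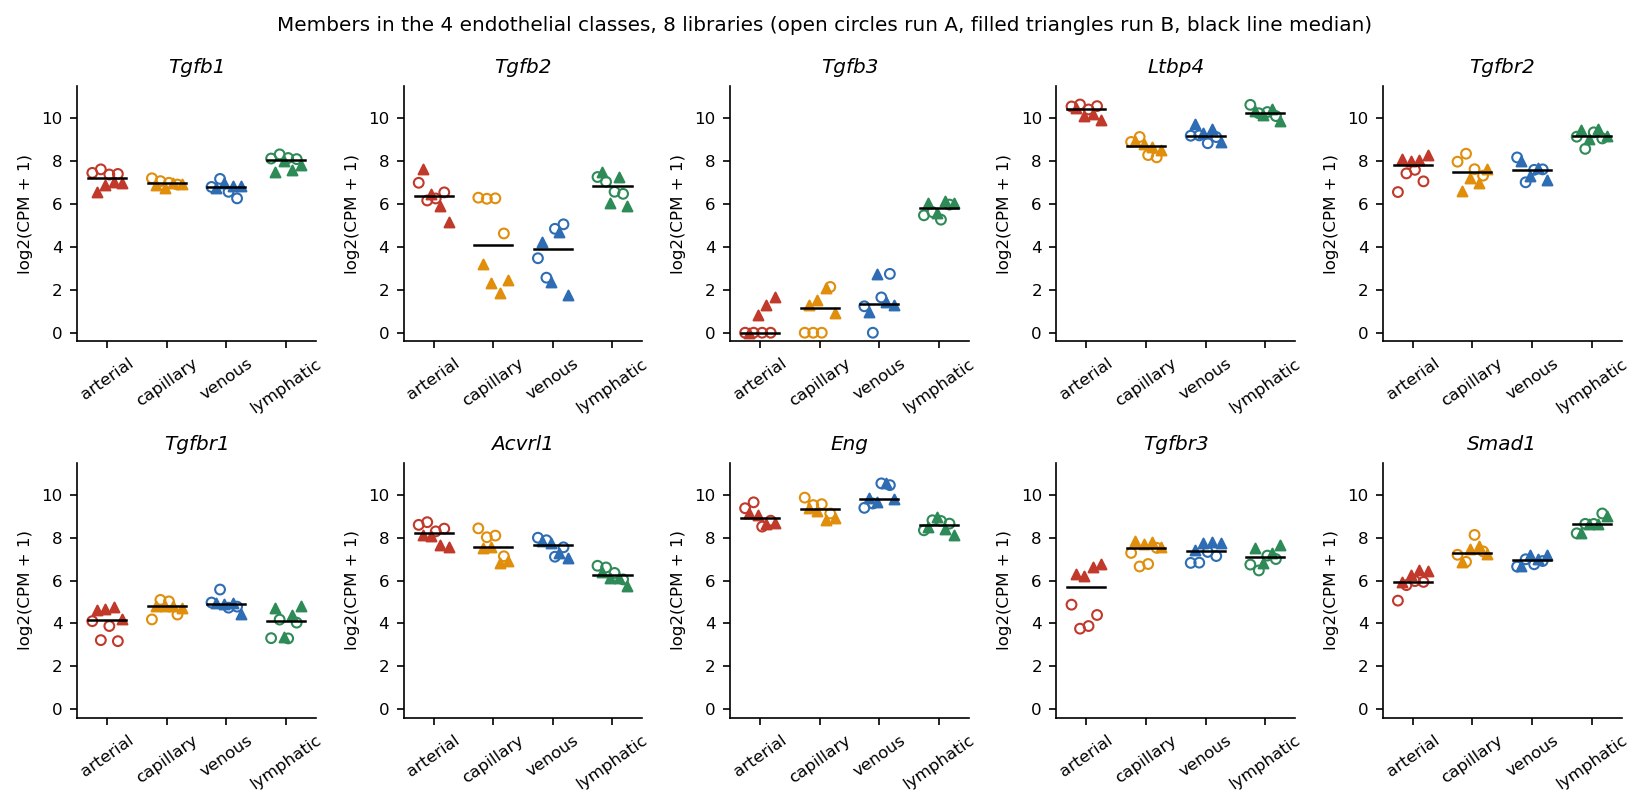
Level of each of the 10 genes as log2(CPM + 1) in the 4 endothelial classes, 1 point per library (open circles run A, filled triangles run B) with the median as a black line. Tgfb3, Tgfbr2 and Smad1 sit highest in lymphatic-like cells in all 8 libraries, and Acvrl1 sits lowest there; capillary-like Tgfb2 and arterial-like Tgfbr3 separate by run.

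Levels also differed between clusters of 1 class. The arterial-like cluster 5 had a median of 130 CPM of Tgfb2 and 1008 CPM of Ltbp4, and cluster 8 had 33.7 and 1748 CPM. An unnamed endothelial cluster, number 17 (led by Klk10 and Cytl1), had the highest Ltbp4 of the clusters drawn, at a median of 2273 CPM. It held 9 UMIs of Tgfb2 in 423 cells, with 26.9 CPM of Smad1 and 15.8 CPM of Tgfbr3. The lymphatic-like cluster 4 exceeded cluster 11 in Tgfb2 (131 against 39.1 CPM), Ltbp4 (1454 against 509), Tgfbr2 (652 against 379) and Tgfb1 (287 against 190). Both had similar Smad1, at 396 and 409 CPM. In the venous-like cluster 14, found almost only in adipose libraries, Eng reached a median of 1702 CPM, against 877 in cluster 6 and 907 in cluster 7. The unnamed cluster 25, led by the tip cell gene Apln, had 432 CPM of Smad1 with 49.5 CPM of Acvrl1 and 95.4 CPM of Ltbp4.

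**Figure D2:**
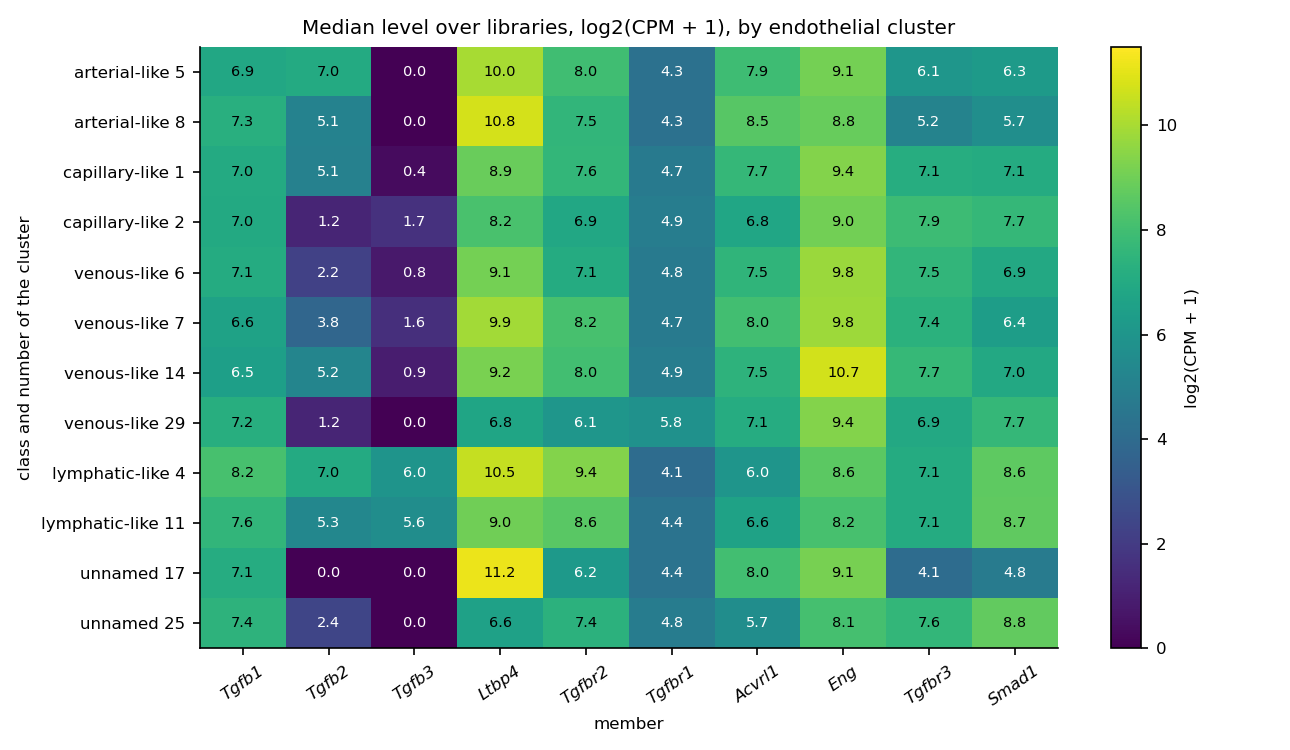
Median over libraries of log2(CPM + 1) for each gene (columns) in the clusters of the 4 classes and in clusters 17 and 25 (rows, by number); brighter cells are higher. Ltbp4 is brightest in clusters 8 and 17, Eng in cluster 14, and Tgfb3 is above 2 on this scale in clusters 4 and 11 only among the clusters drawn.

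Joint detection of receptors and their partners was set beside the product of their separate shares. At 1000 UMIs per cell, Eng and Acvrl1 were both detected in a median of 8.40% of arterial-like cells, and the product of the single shares was 8.69%. In capillary-like cells these were 7.43 and 7.32%, and in lymphatic-like cells 2.38 and 2.29%. Tgfb1 and Tgfbr2 were found together in 8.83% of lymphatic-like and 2.09% of arterial-like cells, with products of 8.49 and 2.22%, and in 1.09% of capillary-like cells with a product of 1.49%. The sparse pair of Tgfbr1 and Tgfbr2 was found together in 0.118% of arterial-like and 0.136% of capillary-like cells, below the products of 0.301 and 0.362%. In venous-like and lymphatic-like cells it was above them, at 0.508 against 0.446% and 0.862 against 0.743%. Shares this small rest on few cells per library, so no difference between classes is read for this pair. Each pair was read as a description, since such shares depend on depth.

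Across the 32 points of 4 classes in 8 libraries, with each library's mean subtracted, pairs of the 10 genes moved in the ways just described. Pearson's r was -0.94 for Tgfb3 with Acvrl1, -0.89 for Acvrl1 with Smad1, 0.85 for Tgfb3 with Smad1 and 0.80 for Tgfb3 with Tgfbr2. The points share libraries and depth and repeat the levels of 4 classes over 8 libraries. A high r therefore largely restates a shared order of classes, and these are descriptions. Out of 8480 genes, those most like Tgfb2 were Pmp22 (0.91), Agrn (0.89) and Clstn1 (0.87). Among those most like Tgfb3 were Dennd2a (0.98) and Tnfaip8l3 (0.97), and among those most like Tgfb1 were Strn (0.91) and Atp6v0b (0.91). Ltbp4 was closest to F2rl1 (0.96), Ctsd (0.93) and Tmem109 (0.91). For the receptors, the closest was Il7 (0.89) for Tgfbr2, and Syne2, Ano6 and Ceacam1 (each 0.96) for Acvrl1. Tgfbr1 had weaker matches in Il17rd (0.82), Mageh1 (0.77) and Grrp1 (0.76). Tgfbr3 was closest to Pawr (0.92), Pde2a (0.91) and Smagp (0.91), and Eng to Qsox1 (0.84), Plxnd1 (0.84) and Npr1 (0.83). Smad1 was closest to Nectin2 (0.95), Smad5 (0.93), which encodes the partner SMAD of the same branch, and Angpt2 (0.93).

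Diet and tissue were then compared within each class, to ask whether a high fat diet or the tissue of origin changed these genes. UMIs were summed per library and class and tested with edgeR's quasi-likelihood test, and genes with a Benjamini-Hochberg adjusted p (over the whole table) under 0.05 were called. Without the run in the model, 0 of 190 tests of the 10 genes were called in 20 comparisons. The count was also 0 with DESeq2 and with limma-voom. No gene at all was called in that fit, so the background was 0% in each of the 20 comparisons. The runs pair the libraries, and with the run as a block 1 of the 190 tests was called. Counts of the sparse gene Tgfb3 passed the low-count filter in venous-like and lymphatic-like cells only, so 9 or 10 of the 10 genes were tested per class.

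The background of the fit with the block was as follows, in percent of all genes tested. In arterial-like cells the diet contrast called 0.842% in mesentery and 0.31% in adipose. The tissue contrast called 1.23% for chow and 0.144% for the high fat diet, and the interaction of both called 0.0776%. In capillary-like cells these 5 shares were 0.663, 1.05, 0.177, 0.112 and 0.00933%. In venous-like cells they were 0.237, 0.0662, 1.95, 0.256 and 0%. In lymphatic-like cells they were 2.06, 0.0339, 1.57, 0.158 and 0.0791%. Beside these, 1 of the 9 genes tested was called in arterial-like cells for tissue on chow, and 0 of the 9 or 10 in every other comparison.

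The called gene was Tgfb2, which was higher in mesentery than in adipose among arterial-like cells on chow. Its levels were 126 CPM (run A) and 195 CPM (run B) in mesentery on chow, and 75.5 and 58.3 CPM in adipose on chow. On high fat diet the mesentery had 70.7 and 88.4 CPM and the adipose tissue 92.2 and 35.3 CPM. Both libraries of mesentery on chow lay above the other 6. The log2 difference of mesentery minus adipose on chow was 1.48 ± 0.29 (SE), with an adjusted p of 0.00351 with the run as a block (edgeR). Without the block it was 1.32, adjusted p = 1. DESeq2 (adjusted p = 0.521) and limma-voom (0.054) with the block did not call it. The call was lost without mesentery on chow B (0.70, adjusted p = 0.767) and without adipose on chow B (1.21, adjusted p = 0.283). The diet difference in mesentery was -1.04 ± 0.29 with an adjusted p of 0.0845, and the interaction was not called (adjusted p = 1).

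The Tgfb2 difference was seen in the Col8a1-led cluster 5 when its cells were fitted alone, a fit added after the data were seen. There Tgfb2 stood at 336 and 292 CPM in mesentery on chow, from 28 and 238 UMIs in 34 and 226 cells. High fat diet mesentery had 150 and 107 CPM, and adipose had 109 and 52.2 CPM on chow and 166 and 41.8 CPM with high fat diet. The values of mesentery on chow did not overlap with any other group. With the run as a block, Tgfb2 was higher in mesentery than in adipose on chow by 2.23 ± 0.31 on the log2 scale (edgeR, adjusted p = 5.08e-06; 0.731% of 7254 genes were called). DESeq2 (adjusted p = 0.00459) and limma-voom (0.00316) called it too. It was not called without the block (2.02, adjusted p = 1) or without mesentery on chow B (1.49, adjusted p = 0.258).

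On high fat diet, Tgfb2 was lower than on chow in cluster 5 of the mesentery, by -1.35 ± 0.30 on the log2 scale (edgeR with the block, adjusted p = 0.0151; 0.317% of genes were called). This call did not hold under DESeq2 (adjusted p = 1), limma-voom (0.516) or the fit without the block (0.999). It was also lost without mesentery on chow B (-0.59, adjusted p = 0.905) and without either library of high fat diet mesentery (A -1.19, 0.0928, and B -1.72, 0.78). The interaction of tissue and diet in cluster 5 was -1.36 ± 0.45 with an adjusted p of 1. In the Gkn3-led cluster 8, Tgfb2 did not pass for tissue on chow (0.39 ± 0.36, adjusted p = 1, where 0.624% of 6886 genes were called), and its run A values rest on 3 to 6 UMIs. Cluster 5 made up 47.2 and 48.9% of the arterial-like cells in mesentery on chow, and 56.4 and 61.6% in adipose on chow. The part of these shares in the Tgfb2 difference was not tested.

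Markers of other cells in the arterial-like sums were as follows. Among 9 lymphatic markers the summed level was 194 and 66.3 CPM in mesentery on chow and 223 and 73.1 CPM in adipose on chow, with 7 to 9 detected. Fibroblast markers summed to 85.0 and 60.8 CPM against 92.7 and 19.7 CPM, and mural markers to 72.9 and 201 CPM against 230 and 432 CPM. Adipocyte markers summed to 36.4 and 539 CPM against 34.3 and 1528 CPM, with 1 and 8 of 8 detected in mesentery and 3 and 8 in adipose. Of these lists, the fibroblast sum of run B was higher in mesentery, as Tgfb2 was, and its part in the result was not tested. In adipose on high fat diet A, lymphatic markers reached 1459 CPM in the arterial-like sum, beside 92.2 CPM of Tgfb2.

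Tgfb2 in lymphatic-like cells was not called for diet. The mesentery had 152 and 180 CPM on chow and 130 and 64.1 CPM with the high fat diet. The adipose tissue had 94.0 and 151 CPM on chow and 87.9 and 59.4 CPM with the high fat diet. In each run and tissue the chow library was the higher, whereas in arterial-like cells of adipose run A the high fat diet library was. The log2 differences of high fat diet minus chow were -0.79 ± 0.28 in mesentery (adjusted p = 0.19) and -0.71 ± 0.31 in adipose (adjusted p = 0.953), from edgeR with the block. Over all 4 classes, Tgfb2 was lower on high fat diet in 13 of 16 pairs of libraries matched for run and tissue. The share of all genes with such a count was not computed, so this is a description.

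**Figure D3:**
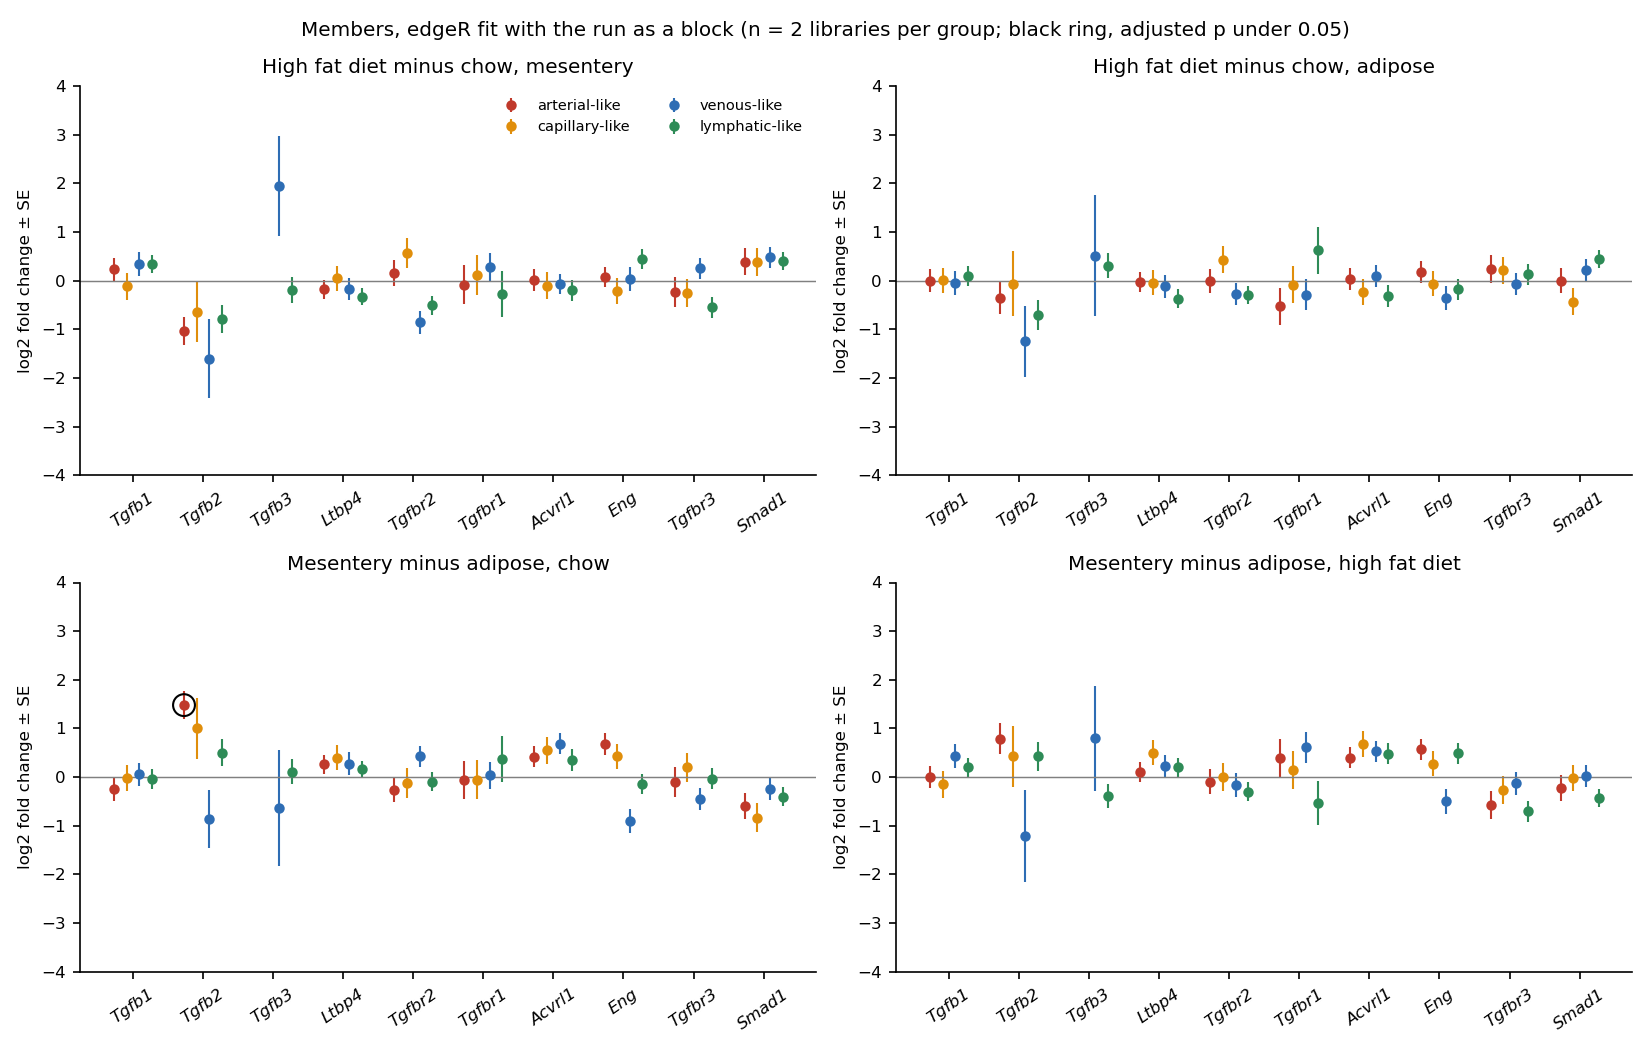
Log2 fold change ± SE of each gene from the edgeR fit with the run as a block, coloured by class, for high fat diet minus chow (upper panels) and mesentery minus adipose (lower panels), n = 2 libraries per group. The ringed point is Tgfb2 in arterial-like cells on chow at 1.48, the only value called; Acvrl1 lies above 0 in all classes of the lower panels.

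Eng gave the other call within a cluster. In lymphatic-like cluster 4, Eng stood at 334 and 259 CPM in mesentery on chow and at 496 and 536 CPM in mesentery on high fat diet. Adipose had 467 and 323 CPM with chow and 438 and 319 CPM with the high fat diet. The mesentery groups did not overlap, while the adipose groups did. The difference in mesentery was 0.81 ± 0.21 on the log2 scale (edgeR with the block, adjusted p = 0.024), and 3.74% of the 7972 genes tested were called in this comparison. limma-voom called it (adjusted p = 0.0171), and DESeq2 (0.111) and the fit without the block (0.944) did not. It was lost without mesentery on chow A (0.80, adjusted p = 0.23), mesentery on chow B (0.81, 0.226) or mesentery on high fat diet B (0.54, 0.493). For the whole lymphatic-like class the difference was 0.45 ± 0.21 with an adjusted p of 0.378.

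In venous-like cells Eng was lower in mesentery, opposite to arterial-like cells, and neither difference was called. Venous-like cells had 668 and 914 CPM in mesentery on chow, and 1475 and 1469 CPM in adipose on chow, which do not overlap (-0.90 ± 0.25 on the log2 scale, adjusted p = 0.0979 with the block). The clusters behind these sums differ, and their part in the difference was not tested. Cluster 7 gave 76.2 and 70.0% of the venous-like cells of mesentery on chow, and cluster 14, which has the highest Eng, gave 61.7 and 44.6% of those of adipose on chow. In cluster 6, present in both tissues, Eng was 667 and 819 CPM in mesentery on chow and 1240 and 910 CPM in adipose on chow (-0.51 ± 0.27, adjusted p = 1). In arterial-like cells Eng was 660 and 561 CPM in mesentery on chow and 364 and 395 CPM in adipose on chow (0.68 ± 0.22, adjusted p = 0.161). On high fat diet arterial-like cells had 799 and 532 CPM in mesentery and 441 and 408 CPM in adipose.

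**Figure D4:**
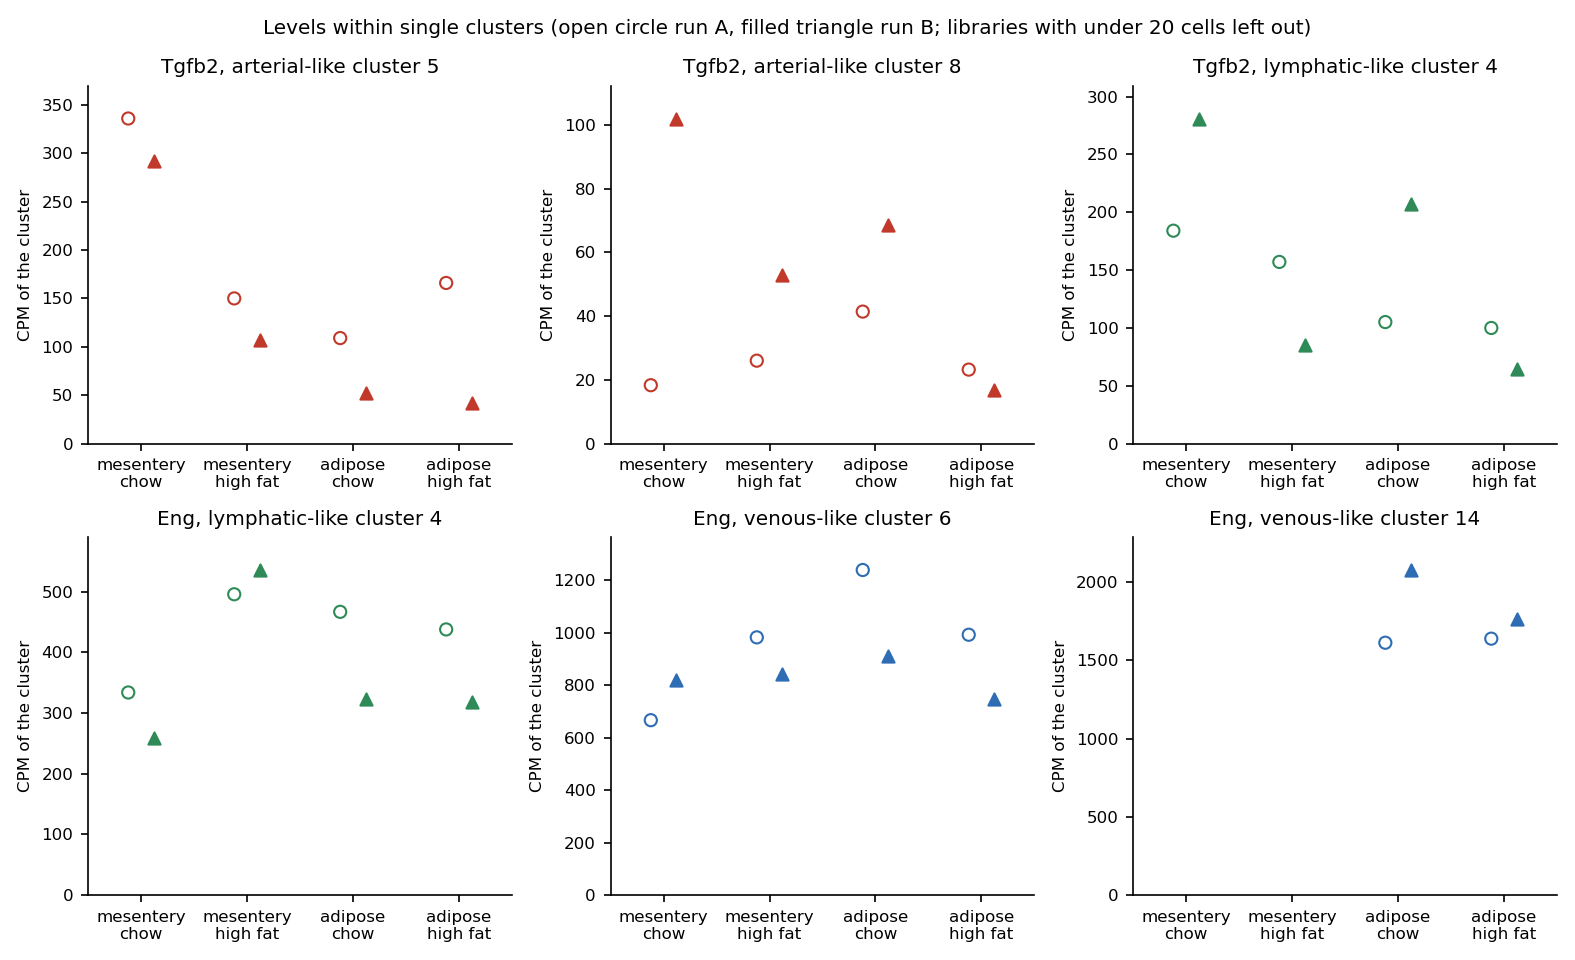
CPM of Tgfb2 (upper panels) and Eng (lower panels) within single clusters, by group, 1 point per library (open circle run A, filled triangle run B; libraries with under 20 cells of the cluster are left out). In cluster 5 the values of mesentery on chow (336 and 292 CPM) lie above the other 6 libraries, and cluster 14 has points in adipose only.

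Acvrl1 and Ltbp4 were the most even of the 10 genes in their tissue difference, and did not pass the tests. Each class has 4 pairs of libraries matched for run and diet, which makes 16 pairs from 4 pairs of pools. Acvrl1 was higher in mesentery in 16 of 16 pairs. In arterial-like cells it was 385 and 275 CPM in mesentery on chow against 312 and 201 CPM in adipose on chow, and 420 and 268 against 341 and 185 CPM on high fat diet. In lymphatic-like cells it was 102 and 83.3 against 80.7 and 68.4 CPM on chow, and 96.5 and 67.6 against 65.3 and 52.6 CPM on high fat diet. The log2 differences with the block ran from 0.35 to 0.69 over classes and diets, and the smallest adjusted p was 0.177. Ltbp4 was higher in mesentery in 15 of 16 pairs in CPM and in 16 of 16 after TMM scaling. Smad1 was lower in mesentery in 14 of 16. After TMM scaling, 0.13% of 8480 genes were higher in mesentery in all 16 pairs and 0.13% were lower in all 16. The share of all genes reaching 14 or 15 of 16 was not computed, so the Smad1 count has no background here. Venous-like clusters differed between tissues, as given for Eng. Median Acvrl1 and Ltbp4 were 259 and 951 CPM in cluster 7, and 174 and 588 CPM in cluster 14. In capillary-like cells they were 203 and 465 CPM in cluster 1, and 110 and 294 CPM in cluster 2. The part of the clusters in the Acvrl1 and Ltbp4 differences was not tested.

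Smad1 levels in lymphatic-like cells repeated closely between runs. They were 293 and 298 CPM in chow mesentery and 398 and 393 CPM in high fat diet mesentery. They were 397 and 402 CPM in chow adipose and 557 and 510 CPM in high fat diet adipose. Mesentery on chow was thus the lowest and adipose on high fat diet the highest group, with no overlap between these and the others. The log2 differences of high fat diet minus chow were 0.40 ± 0.19 in mesentery (adjusted p = 0.374) and 0.44 ± 0.18 in adipose (adjusted p = 0.953), and those of mesentery minus adipose were -0.40 ± 0.19 and -0.43 ± 0.18 (adjusted p = 0.489 and 0.742), all from edgeR with the block. None was called. Over the 4 classes Smad1 was higher on high fat diet in 11 of 16 matched pairs. For diet, 0.106% of the 8480 genes were higher in all 16 pairs and 0.106% were lower in all 16. No such share was computed for 11 of 16, so the Smad1 count has no background.

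Tgfbr2 had its largest diet difference in venous-like cells of the mesentery. It was 287 and 255 CPM with chow and 128 and 155 CPM with the high fat diet, without overlap, and the difference was -0.86 ± 0.23 on the log2 scale (edgeR with the block, adjusted p = 0.2). The adipose groups, with 192 and 205 CPM for chow and 195 and 136 CPM for the high fat diet, overlapped. Cluster 7 gave 76.2 and 70.0% of the venous-like cells in mesentery on chow, and 45.2 and 23.7% with the high fat diet. The part of this share in the Tgfbr2 difference was not tested. In cluster 6 alone the difference was -0.88 ± 0.29 (adjusted p = 0.859). Tgfb1, Tgfbr1 and Tgfbr3 were not called for diet or tissue in any class. Tgfb1 differed more between runs than between groups in arterial-like cells, at 165 to 195 CPM in run A and 94.6 to 131 CPM in run B.

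Other genes of the pathway were read from lists of latency and activation genes, further ligands, receptors and SMADs, modulators, and response genes of TGF-beta and of BMP9 and ALK1. With the run as a block no further type I or II receptor (4 or 5 of 7 tested per class), no other SMAD (4 to 6 of 7) and no modulator (12 of 15) was called in any comparison. Without the block no listed gene was called. The BMP9 and ALK1 response genes had median log2 differences from -0.56 to 0.56 over the 20 comparisons, against -0.02 to 0.02 for all genes, and those of TGF-beta from -0.42 to 0.29. A median over a short list spreads more widely than one over all genes. The lists were not tested as sets, so no shift of a list is read from these ranges. The calls fell on response genes, latency genes, mesenchymal transition genes and 1 ligand. Each rests on edgeR with the block, and none was recomputed with DESeq2, with limma-voom or with a library left out.

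In arterial-like cells of the mesentery, 2 of 12 TGF-beta response genes rose on high fat diet and none fell, where 0.842% of all genes were called. The median log2 difference of the list was 0.01, as it was over all genes. Angptl4, an inhibitor of lipoprotein lipase, went from 4.32 and 26.3 to 21.7 and 167 CPM (TMM-scaled, runs A and B; 2.57 ± 0.34 on the log2 scale, edgeR with the block, adjusted p = 1.29e-05). Col4a2, a basement membrane collagen, went from 56.2 and 191 to 95.5 and 488 CPM (1.21 ± 0.26, adjusted p = 0.0104). Both genes were higher on high fat diet within each run, while the groups overlapped between runs. Inhbb, a subunit of activin B, was the 1 of 5 further ligands to rise, from 4.32 and 5.85 to 30.4 and 39.4 CPM (2.77 ± 0.47, adjusted p = 4.90e-04). Angptl4 (-2.55 ± 0.34, adjusted p = 1.07e-05) and Inhbb (-2.28 ± 0.47, adjusted p = 0.00543) were also lower in mesentery than in adipose on chow. Adipocytes also make Angptl4. The 8 adipocyte markers summed to 36.4 and 539 CPM in mesentery on chow, 12.5 and 82.4 CPM in mesentery with the high fat diet, and 34.3 and 1528 CPM in adipose on chow. In run B they were thus higher in adipose than in mesentery on chow, as Angptl4 was (152 against 26.3 CPM). Their part in either result was not tested. In capillary-like cells Ccn2, a matrix protein induced by TGF-beta, fell on high fat diet in mesentery (-1.71 ± 0.39, adjusted p = 0.0165) and in adipose (-2.14 ± 0.41, adjusted p = 0.00125), 1 of 13 response genes in each, where 0.663 and 1.05% of all genes were called. Angptl4 rose in adipose (1.43 ± 0.31, adjusted p = 0.0069). The capillary-like clusters differed between the diets: cluster 2 gave 28.0 and 49.1% of the cells in mesentery on chow and 15.7 and 10.7% with the high fat diet. In adipose it gave 14.6 and 82.0% on chow and 64.7 and 10.3% with the high fat diet. Adipocyte markers in capillary-like cells of run B summed to 3597 and 4189 CPM on chow (mesentery, adipose) and to 216 and 75.0 CPM with the high fat diet. The part of these in the results was not tested.

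In venous-like cells, 2 of 15 response genes rose on high fat diet in mesentery, Angptl4 (4.18 ± 0.53, adjusted p = 0.00259) and Col4a2 (1.61 ± 0.26, adjusted p = 0.0182), from edgeR with the block, where 0.237% of all genes were called. The median log2 difference of the list was 0.04, against 0 for all genes. The share of cluster 7 differed between these diets, as given for Tgfbr2, and its part was not tested. Between tissues on chow, where 1.95% of all genes were called, Thbs1, which releases latent TGF-beta, was higher in mesentery, at 703 and 296 against 85.9 and 89.8 CPM (2.28 ± 0.28, adjusted p = 4.81e-04). It was also higher on high fat diet (1.57 ± 0.28, adjusted p = 0.0307). Tgfbi (3.25 ± 0.54, adjusted p = 0.00487) and Ltbp2 (4.17 ± 0.92, adjusted p = 0.0319), which is on both the latency and the response list, were higher in mesentery on chow, and Col4a2 was lower (-1.22 ± 0.26, adjusted p = 0.0245). Ltbp2 had no UMI in adipose on chow A, so its fold depends on the prior count. Of 11 mesenchymal transition genes, Col3a1 (-2.55 ± 0.49, adjusted p = 0.0129) and Zeb2 (-1.34 ± 0.30, adjusted p = 0.0334) were lower in mesentery on chow and Tagln was lower in mesentery on high fat diet (-1.20 ± 0.23, adjusted p = 0.0434). The 8 fibroblast markers, Col3a1 among them, summed to 31.1 and 20.7 CPM in mesentery on chow and 478 and 237 CPM in adipose on chow. The 10 mural markers, Tagln among them, summed to 451 and 595 CPM in mesentery and 1166 and 1306 CPM in adipose on high fat diet. The part of these cells in the results was not tested, and the clusters differ between tissues as given for Eng.

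In lymphatic-like cells of the mesentery, 3 of 13 TGF-beta response genes rose and 1 fell on high fat diet (edgeR with the block), where 2.06% of all genes were called. The median log2 difference of the list was 0.17, against 0 for all genes. Fn1, the matrix protein fibronectin, went from 175 and 175 to 581 and 589 CPM (1.74 ± 0.20, adjusted p = 6.97e-05). Angptl4 went from 36.1 and 53.1 to 211 and 158 CPM (2.02 ± 0.24, adjusted p = 9.10e-05), and Col4a2 from 185 and 149 to 293 and 356 CPM (0.97 ± 0.20, adjusted p = 0.0137). Tgfbi, a secreted matrix protein named for its induction by TGF-beta, fell from 511 and 369 to 82.4 and 22.7 CPM (-3.22 ± 0.27, adjusted p = 4.15e-06). The groups did not overlap for any of these 4 genes. Macrophages can also make Tgfbi. Of 9 macrophage markers 4 to 7 were detected in the mesentery libraries, and they summed to 132 and 95.6 CPM with chow and 134 and 157 CPM with the high fat diet, with Adgre1 and Csf1r at 0 in each of the 4. Their part in the result was not tested. Hey1, 1 of 6 BMP9 and ALK1 response genes tested, fell as well (70.9 and 42.3 to 12.6 and 22.7 CPM, -1.69 ± 0.35, adjusted p = 0.0125). S100a4 rose (1.93 ± 0.45, adjusted p = 0.0276), 1 of 5 mesenchymal genes tested. Mmp14, named after its values were seen, was the 1 latency gene of 11 to rise (0.83 ± 0.20, adjusted p = 0.0403). On chow, Tgfbi (1.40 ± 0.24, adjusted p = 0.00358) and Hey1 (1.46 ± 0.35, adjusted p = 0.0389) were higher in mesentery than in adipose. In adipose, Angptl4 was the only listed gene that rose with the diet (1.73 ± 0.27, adjusted p = 0.0284). Beside these changes, Tgfb1, Tgfb2, Tgfb3 and their receptors were not called in the whole lymphatic-like class. The co-receptor gene Eng was called for diet in mesentery in cluster 4 fitted alone, as given above.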

How the data were processed

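Single-cell libraries (10x Genomics 3' chemistry, about 5000 cells targeted, per the labels' protocols) of YFP-positive cells from 8 pools of 6 mice were analysed. The deposited values are raw UMI counts, which the authors had not normalised. Run A was counted with Cell Ranger 3.0.2 and run B with 5.0.0, per the file headers. The submitters' processing notes name the build mm10 and Seurat 4.3.0. The settings for calling cells were not given in the sources used here.

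Barcodes passed (23996) with 500 UMIs or more, 300 genes or more and no more than 10% of mitochondrial counts. Scrublet's automatic threshold marked 40 barcodes (0.15% of those with up to 20% mitochondrial counts), so the threshold was set to the rate that the loading predicts, which removed 857 (3.57%) of the 23996. Clusters came from 2000 variable genes, 30 principal components, a re-implementation of Harmony over runs, 20 neighbours and Leiden clustering at resolution 1.0, giving 33 clusters. A cluster took a class from at least 3 markers raised 1.5-fold. These limits come from an earlier analysis of these data, which set them with its clusters in view, and cluster names may differ from those of the study. Summed counts were tested with edgeR 4.0.16 (TMM, filterByExpr, quasi-likelihood), with 1 mean per group over all 8 libraries; the script was tested on simulated data. Each run is labelled an independent repeat of the experiment. Deviations from group means correlated between same-run libraries by 0.49 to 0.58 (arterial-like), 0.32 to 0.41 (capillary-like), 0.54 to 0.68 (venous-like) and 0.63 to 0.71 (lymphatic-like), so the runs pair the libraries. Alternatives were the run as a block, DESeq2 1.42.0, limma 3.58.1 (voom), other scaling and filters, other cell limits and clusterings, and each library left out. Single clusters fitted alone were added after seeing the data.

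The 10 genes and the pathway lists were chosen with earlier results of these data known. Named beside the 10 were, per comparison, up to 6 listed pathway genes with the smallest p among those called, and per gene the 3 genes most like it, some of which are not reported here. RefSeq promoter windows were matched by symbol for 7 of the 10 genes (not Tgfb3, Acvrl1 and Tgfbr3). Python 3.11.15, scanpy 1.11.5, leidenalg 0.10.2 and R 4.3.3 were used.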

Additional observations from a re-analysis of the deposited data

Results flagged for a closer look

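Tgfbi in lymphatic-like cells differed in its diet effect between the tissues. The interaction of tissue and diet was -2.11 on the log2 scale with the run as a block (edgeR, adjusted p = 0.0437; the background for this comparison was 0.0791% of genes), and it was not called without the block (adjusted p = 1). Levels were 511 and 369 CPM in mesentery on chow, 82.4 and 22.7 CPM in mesentery on high fat diet, 273 and 100 CPM in adipose on chow, and 124 and 47.3 CPM in adipose on high fat diet, TMM-scaled. All 4 matched pairs were lower on high fat diet.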

How the results depend on the processing

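Of 130 recomputed class differences, 129 stayed within 1 SD. The exception was Tgfb3, lymphatic-like minus arterial-like, which was 3.41 with a pseudocount of 5 CPM. In 20 comparisons over the 10 genes, edgeR without the block called 0, and the run as a replicate block called 1 (Tgfb2, arterial-like cells, tissue on chow) and changed no other count of the 10 genes. That count became 0 under DESeq2 with the block, limma-voom with the block and cluster 8 alone with the block. It ranged from 0 to 1 when 1 library was left out. It was 1 with up to 20% mitochondrial counts, with doublets kept and at Leiden resolution 2.0. Over all comparisons, 365 counts of called genes were recomputed: 359 were the same, 5 were lower and 1 was higher. Of 58 recomputed log2 changes of called genes, 30 kept their call, 28 lost it and 0 changed direction. Shares of cells with a UMI rose without thinning for each of the 10 genes. With 2 pools per group, and run A arterial-like and capillary-like sums of 240417 to 291283 and 116151 to 295007 UMIs, differences of thinly counted genes such as Tgfbr1 and capillary-like Tgfb2 were not measurable with precision.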
